A study of Homo sapiens with 6 samples.

Results

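The genes of the condensin complexes, of Ki-67 and of DNA topoisomerase II were read out of RNA-seq counts of HCT116, a human colorectal carcinoma line long established in culture. The 10 genes are SMC2, SMC4, NCAPD2, NCAPG, NCAPH, NCAPD3, NCAPG2, MKI67, TOP2A and TOP2B, and they were taken by symbol out of the 27942 genes of the deposited count table. All 10 passed the filter on low counts that left 13727 genes for testing. The remaining condensin subunit, NCAPH2, was read beside them as a related gene. The study compared 2 groups of 3 libraries. HCT116 cells left without treatment are called NT, and HCT116 cells kept for 24 h in 0.5 µM oxaliplatin, a platinum compound that binds DNA, are called OXA. Both groups came from the same unmodified line, and each library was made from polyadenylated RNA with a stranded kit. The labels number the replicates 1 to 3 in each group without saying whether they were separate cultures, so p-values measure only the spread between these libraries.

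Condensins are rings that fold chromosomes by extruding loops of DNA. SMC2 and SMC4 are the ATPase arms of every condensin, and they are joined either by NCAPD2, NCAPG and NCAPH to make condensin I, which reaches chromatin after the nuclear envelope opens, or by NCAPD3, NCAPG2 and NCAPH2 to make condensin II, which is nuclear throughout the cycle. Ki-67, encoded by MKI67, coats mitotic chromosomes and is the usual antibody marker of proliferating cells. Topoisomerase II passes DNA duplexes through each other, and its alpha form (TOP2A) peaks in dividing cells whereas its beta form (TOP2B) is also made in cells that no longer divide.

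Library totals lay between 32979521 and 40967880 counts. Replicates of each group differed by more than counting error, and NT library 1 stood apart. Its chi-square per gene was 83.1 against NT library 2 and 75.7 against NT library 3, while the other pairs of replicates lay between 19.2 and 29.6. Across the tested genes its deviation from the NT mean went with the GC content of the transcript (Spearman's rho -0.78, a description across genes, which are not independent replicates). Other libraries had such a trend too, with rho 0.72 for NT library 2 and 0.47 for NT library 3. For OXA libraries 1, 2 and 3 it was -0.58, 0.64 and -0.17. The log2 fold change (OXA over NT) had a rho of 0.28 with GC content and -0.15 with merged exon length. The main fit had no correction for either. Among the 10 genes, the 5 with a GC content of 35.9% to 38.9% (SMC2, SMC4, NCAPG, TOP2A and TOP2B) lay 0.18 to 0.29 above the NT mean in NT library 1 on the log2 scale, and the 5 with 41.4% to 51.6% lay between -0.02 and 0.13, so values are also given without this library. Over the tested genes, deviations from the group means were positively correlated between libraries that share a replicate number (Pearson's r 0.71, 0.71 and 0.41). Single genes could differ, as for NCAPG, where library 3 deviated by -0.045 in NT and by 0.094 in OXA. Beside each result whose call it changes, a second fit is given that has the replicate number as a blocking factor (the replicate block). Of 8 markers of colorectal epithelium, 7 passed the filter, with a summed level of 77719 to 111631 normalized counts in NT and 126333 to 149337 in OXA. Most of this sum came from the keratins KRT8, KRT18 and KRT19, whose means were higher in OXA. The means of EPCAM, CDH1 and VIL1 were lower in OXA, and that of CDX2 was higher. CEACAM5 was at or near 0 in every library and VIL1 was low. Summed levels reached 228 for 4 leukocyte markers, 28.5 for 3 endothelial markers and 307 for 5 fibroblast markers.

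All 10 genes had a log2 fold change (OXA over NT) below 0, between -0.60 for MKI67 and -0.05 for TOP2B, with a median of -0.39, where the median of all genes tested was 0.02. By edgeR's quasi-likelihood test, adjusted over all genes tested, 2 of the 10 fell in OXA, MKI67 and NCAPD3, and 0 rose. The background was 2.29% of all genes tested for a fall and 2.78% for a rise. At an unadjusted p under 0.05, 8 were lower and 0 higher, against 11.1% and 10.7% of all genes. DESeq2 called 4 lower and 0 higher, against a background of 4.41% and 4.64%. These were MKI67, NCAPD3, NCAPG (DESeq2 adjusted p = 0.0157) and SMC2 (DESeq2 adjusted p = 0.0478). By limma-voom 2 were lower and 0 higher, against 289 lower and 375 higher of all 13727 genes tested. In 9 of the 10, every OXA library lay below every NT library, which held for 14.4% of all genes tested, and TOP2B was the exception. In the fit with the replicate block, the same 9 genes had an edgeR adjusted p under 0.05, against 10.9% of all genes tested called lower and 12.1% called higher. Without NT library 1, MKI67 and NCAPD3 were again the 2 genes called lower, against a background of 4.11%. Leaving out another library cut the calls over the whole table as well as among the 10. Without OXA library 1, 2 or 3 edgeR called 0 of the 10, against 0.136%, 0.231% and 0.483% of all genes tested called lower, and at an unadjusted p under 0.05 there were 6, 6 and 8, against 8.03%, 7.11% and 10.1%. It called 1 without NT library 2 or NT library 3, against 1.05% and 0.498%. In these bulk libraries, fewer cells that carry a transcript and less of it in each cell cannot be told apart.

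**Figure D1:**
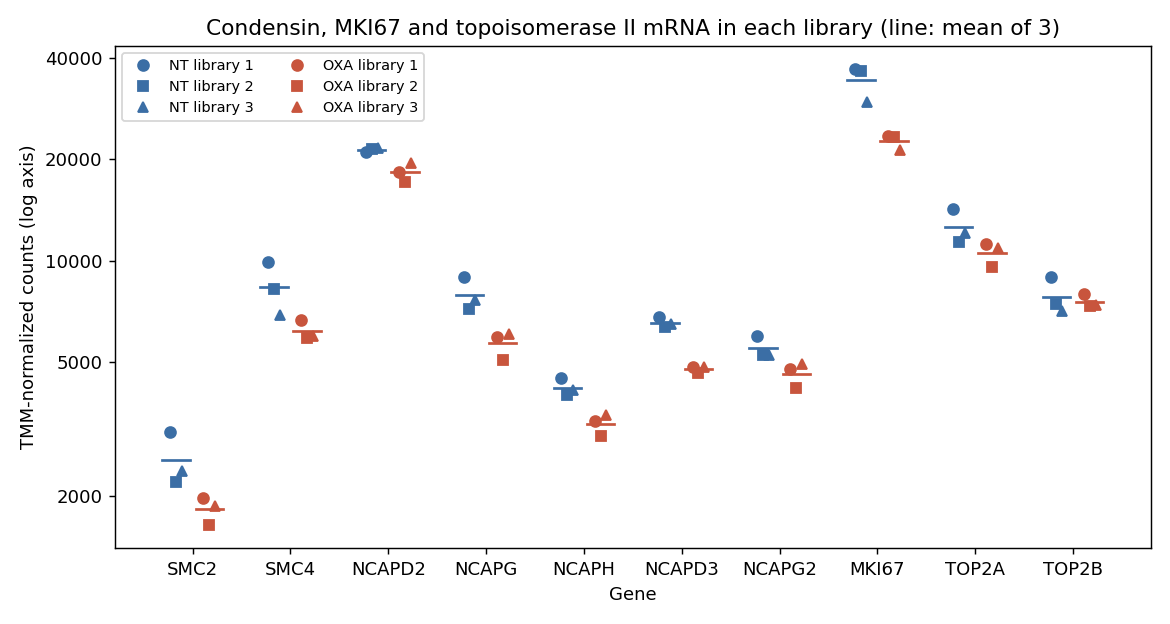
TMM-normalized counts (log axis) of the 10 genes in each of the 3 NT (blue) and 3 OXA (red) libraries, with the replicate number as the symbol and the group mean as a line. OXA libraries lay below all NT libraries in 9 genes, and for TOP2B the groups overlapped.

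SMC2 (ENSG00000136824, chr9:104094260-104141419 of GRCh38, plus strand) and SMC4 (ENSG00000113810, chr3:160399274-160434954, plus strand) encode the ATPase arms shared by both condensins. SMC2 had 3108, 2203 and 2379 normalized counts in NT libraries 1, 2 and 3, and 1983, 1639.8 and 1877 in the OXA libraries of the same numbers. The groups did not overlap, and NT library 1 was the highest of the 6. The mean went from 2563 ± 479.5 (SD, n = 3) to 1833 ± 176, a log2 fold change of -0.48 (standard error 0.15, 95% confidence interval -0.82 to -0.14, edgeR adjusted p = 0.106). SMC4 was more abundant and had 9874, 8231 and 6880.1 normalized counts in NT and 6643, 5914 and 5968 in OXA. Here too the groups were separate, with NT library 3 only a little above OXA library 1. The log2 fold change of SMC4 was -0.43 (standard error 0.14, 95% confidence interval -0.75 to -0.11, edgeR adjusted p = 0.118). With the replicate block the edgeR adjusted p was 0.0115 for SMC2 and 0.0186 for SMC4. Without NT library 1 the log2 fold changes were smaller, -0.32 and -0.29, with edgeR adjusted p of 0.0996 and 0.124.

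The non-SMC subunits of condensin I are the kleisin NCAPH, which closes the ring between the ATPase heads, and the HEAT-repeat proteins NCAPD2 and NCAPG, which bind the kleisin and DNA. NCAPD2 (ENSG00000010292, chr12:6493356-6531955, plus strand) had 21050.1, 21368 and 21592 normalized counts in NT and 18328.5, 17069.9 and 19426.5 in OXA. Its NT libraries were the most alike of any of the 10 genes, and all of them lay above the OXA libraries. The log2 fold change was -0.22 (standard error 0.084, 95% confidence interval -0.42 to -0.03, edgeR adjusted p = 0.176). NCAPG (ENSG00000109805, chr4:17810979-17844865, plus strand) had 8968, 7172 and 7652 normalized counts in NT and 5953, 5068 and 6059 in OXA. NT library 1 was again the highest, and the groups were separate without it. Its log2 fold change was -0.48 (standard error 0.12, 95% confidence interval -0.75 to -0.21), at an edgeR adjusted p of 0.0605. NCAPH (ENSG00000121152, chr2:96335766-96377091, plus strand) had 4499, 3984 and 4122 normalized counts in NT and 3335, 3016 and 3482 in OXA. The lowest NT library lay above the highest OXA library, and the log2 fold change was -0.36 (standard error 0.094, 95% confidence interval -0.58 to -0.14, edgeR adjusted p = 0.0727). With the replicate block the edgeR adjusted p was 0.0337 for NCAPD2, 0.00748 for NCAPG and 0.0124 for NCAPH. Leaving out NT library 1 moved NCAPG to -0.38 (edgeR adjusted p = 0.0517), NCAPH to -0.31 (0.0771) and NCAPD2 to -0.23 (0.146).

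In condensin II the HEAT-repeat subunits are NCAPD3 and NCAPG2. NCAPD3 (ENSG00000151503, chr11:134150113-134225504, minus strand) had 6819, 6360.1 and 6473 normalized counts in NT and 4832, 4656 and 4841 in OXA. Both groups were tight, and the gap between them was wider than the range within either. NCAPD3 fell by 27.1%, from 6551 ± 239 to 4776 ± 104 (log2 fold change -0.46, standard error 0.078, 95% confidence interval -0.64 to -0.28, edgeR adjusted p = 0.021). NCAPG2 (ENSG00000146918, chr7:158631169-158704804, minus strand) had 5988, 5237 and 5246 normalized counts in NT and 4766, 4181 and 4919 in OXA. OXA library 3 came close to the lowest NT library without reaching it. The log2 fold change was -0.25 (standard error 0.10, 95% confidence interval -0.48 to -0.01, edgeR adjusted p = 0.207), and with the replicate block the edgeR adjusted p was 0.0437. Without NT library 1 it was -0.18 for NCAPG2 (edgeR adjusted p = 0.283) and -0.43 for NCAPD3 (0.0155). NCAPD3 no longer passed without NT library 3 or without any OXA library, at edgeR adjusted p up to 0.12, and its log2 fold change stayed between -0.51 and -0.43 with each library left out in turn.

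NCAPH2, the kleisin of condensin II, had a log2 fold change above 0 with all libraries kept, unlike the other subunits. It had 1148, 2411 and 2522 normalized counts in NT and 1720.3, 2352 and 2399.5 in OXA. NT library 1 held less than any other library, followed by OXA library 1, and the groups overlapped. The log2 fold change was 0.09 (standard error 0.29, 95% confidence interval -0.57 to 0.75, edgeR adjusted p = 0.892), and without NT library 1 it was -0.19. In that fit it lay within the range of the other condensin genes, from -0.43 (NCAPD3) to -0.18 (NCAPG2). Every OXA library then lay below both remaining NT libraries. The interval with all libraries kept contains the fold changes of the 7 other condensin genes, from -0.48 to -0.22. With the replicate block the log2 fold change of NCAPH2 was 0.15 (standard error 0.13, 95% confidence interval -0.18 to 0.48, edgeR adjusted p = 0.445). This interval does not reach those estimates, which have errors of their own. In the same fit it overlaps the intervals of NCAPD2 (-0.36 to -0.09) and NCAPG2 (-0.41 to -0.09). It does not overlap those of SMC2, SMC4, NCAPG, NCAPH and NCAPD3. Whether NCAPH2 differed from the other subunits in its change was not tested.

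The share of the 2 condensins was compared within each library, where the library factor drops out. Summed per kb of merged exons, the condensin I subunits NCAPD2, NCAPG and NCAPH stood to the condensin II subunits NCAPD3 and NCAPG2 at 4.796, 5.005 and 5.114 in NT and at 4.919, 4.949 and 5.03 in OXA. The OXA ratios lay within the range of the NT ratios. Per kb of canonical transcript the ratios were 2.94, 3.09 and 3.14 in NT and 3.08, 3.09 and 3.17 in OXA. On that scale OXA library 3 lay just above the NT range. The level of the ratio rests on the length chosen. NCAPH2 was left out, so more subunits were summed for condensin I than for condensin II. The corresponding subunits within this sum were shifted against each other. NCAPD2 had 3.09, 3.36 and 3.34 times the counts of NCAPD3 in NT and 3.79, 3.67 and 4.01 times in OXA. NCAPG had 1.498, 1.369 and 1.459 times the counts of NCAPG2 in NT and 1.249, 1.212 and 1.232 times in OXA. In neither pair did the groups overlap, and the mean log2 ratio in OXA minus that in NT was 0.23 for NCAPD2 over NCAPD3 and -0.23 for NCAPG over NCAPG2. SMC4 over SMC2 was 3.18, 3.74 and 2.89 in NT and 3.35, 3.61 and 3.18 in OXA, with overlapping groups. These ratios were described and not tested.

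**Figure D2:**
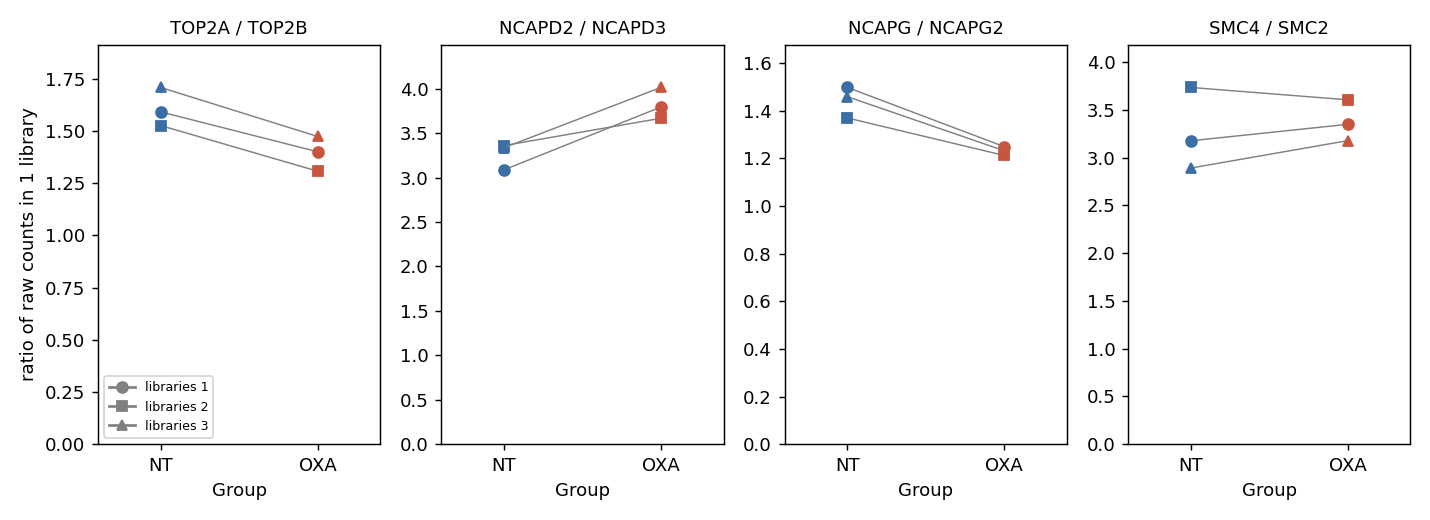
Ratio of raw counts of paired genes within each library (linear axis from 0), NT on the left and OXA on the right of each panel, with lines joining libraries of the same number. TOP2A over TOP2B was lower in OXA in all 3 pairs of libraries, NCAPD2 over NCAPD3 higher, NCAPG over NCAPG2 lower, and SMC4 over SMC2 overlapped between the groups.

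MKI67 (ENSG00000148773, chr10:128096659-128126423, minus strand) had the lowest log2 fold change of the 10 genes. It had 37046, 36471 and 29580.1 normalized counts in NT and 23391, 23215 and 21326 in OXA. Library 3 was the lowest of each group, and all OXA libraries lay well below all NT libraries. MKI67 fell by 34.1%, from 34366 ± 4155 to 22644 ± 1145 (log2 fold change -0.60, standard error 0.11, 95% confidence interval -0.86 to -0.35, edgeR adjusted p = 0.0258), which placed it at percentile 3.79 of all genes tested. Without NT library 1 the log2 fold change was -0.54 (edgeR adjusted p = 0.017). The call was lost without NT library 2 or without any OXA library, at edgeR adjusted p up to 0.116, while the log2 fold change stayed between -0.73 and -0.54.

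TOP2A (ENSG00000131747, chr17:40388525-40417896, minus strand) had 14186, 11379 and 12095 normalized counts in NT and 11181, 9588 and 10862 in OXA. The lowest NT library and the highest OXA library were nearly level. Its log2 fold change was -0.25 (standard error 0.11, 95% confidence interval -0.51 to 0.01, edgeR adjusted p = 0.245), and with the replicate block the edgeR adjusted p was 0.0277. TOP2B (ENSG00000077097, chr3:25597978-25664909, minus strand) had 8909.9, 7453 and 7077 normalized counts in NT and 7981, 7330.2 and 7368 in OXA. The groups overlapped, and library 1 was the highest of each. For TOP2B it was -0.05 (standard error 0.11, 95% confidence interval -0.30 to 0.20, edgeR adjusted p = 0.844), and 0.632 was the edgeR adjusted p with the replicate block. Leaving out NT library 1 gave -0.15 for TOP2A (edgeR adjusted p = 0.361) and 0.06 for TOP2B (0.734).

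Whether the topoisomerase II forms differed in their change was tested on their ratio. TOP2A had 1.592, 1.527 and 1.709 times the counts of TOP2B in NT and 1.401, 1.308 and 1.474 times in OXA. The groups did not overlap in these raw counts. The mean log2 ratio in OXA minus that in NT was -0.21 (pooled SD 0.085), and an exact permutation test over the 20 ways to assign 3 of the 6 libraries to OXA gave a two-sided p of 0.1, the smallest that 3 against 3 libraries can give. In the authors' normalized values the groups overlapped in this ratio, with a log2 difference of -0.26 (exact permutation p = 0.3). Within same-numbered pairs the log2 differences of the raw counts were -0.18, -0.22 and -0.21. An exact test over the sign flips of these pairs gave p = 0.25, again the smallest possible. MKI67 had 2.61, 3.21 and 2.45 times the counts of TOP2A in NT and 2.09, 2.42 and 1.96 times in OXA, a log2 difference of -0.35, and OXA library 2 was close to NT library 3. This second ratio was not tested.

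**Figure D3:**
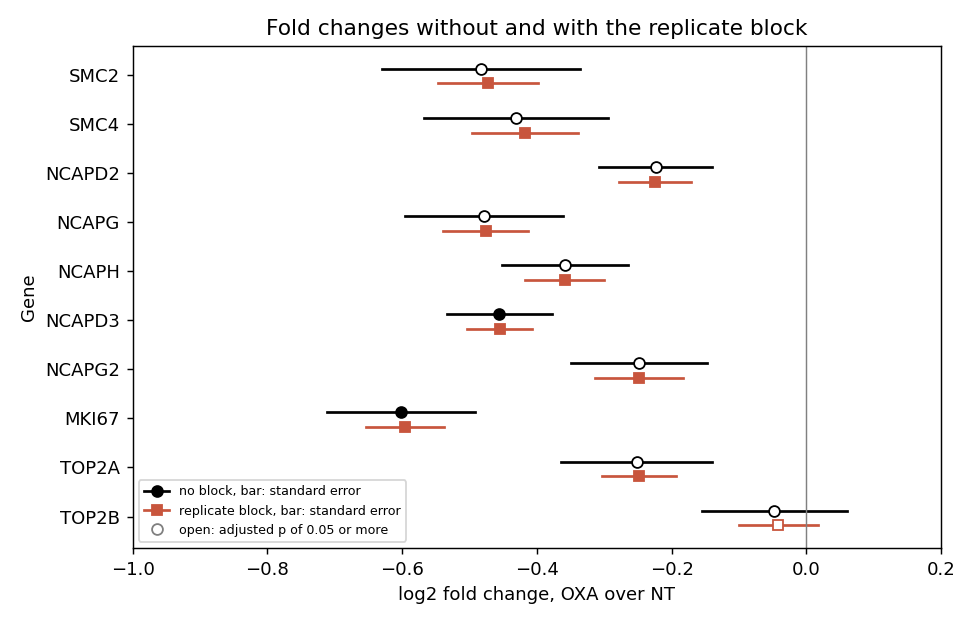
Log2 fold change (OXA over NT) of the 10 genes from edgeR without (black) and with (red) the replicate block, with bars for the standard error and open symbols for an adjusted p of 0.05 or more. Estimates differ little between the fits, the standard errors are smaller with the block, and 2 genes pass without it against 9 with it.

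Levels were compared between genes only per length of the transcript. Counts per kb of the canonical transcript, scaled to a sum of 1000000 over all genes of a library, were highest in NT for NCAPD2 (284 ± 2.86, n = 3), MKI67 (173 ± 21.7) and TOP2A (142 ± 18.5). NCAPG (111 ± 14.7), SMC4 (105 ± 20.01), NCAPG2 (87.0 ± 8.08) and TOP2B (86.3 ± 11.9) followed, and NCAPD3 (57.0 ± 2.91), NCAPH (44.7 ± 3.49) and SMC2 (27.8 ± 5.62) were lowest. From MKI67 down to TOP2B each neighbour in this order overlapped with the next over the 3 NT libraries, whereas NCAPD2, NCAPD3, NCAPH and SMC2 were each separate from their neighbours. The order rests on the length chosen. With the merged length of all annotated exons, which is 18698 bases for NCAPD3 and 18645 for TOP2B against 7369 and 5814 in the canonical transcripts, NCAPD3 was last (40.9 ± 1.78) and TOP2B the eighth (48.9 ± 6.15). In OXA the levels per kb of canonical transcript were 108 ± 4.79 for MKI67 and 113 ± 9.12 for TOP2A, so that these genes overlapped there too.

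**Figure D4:**
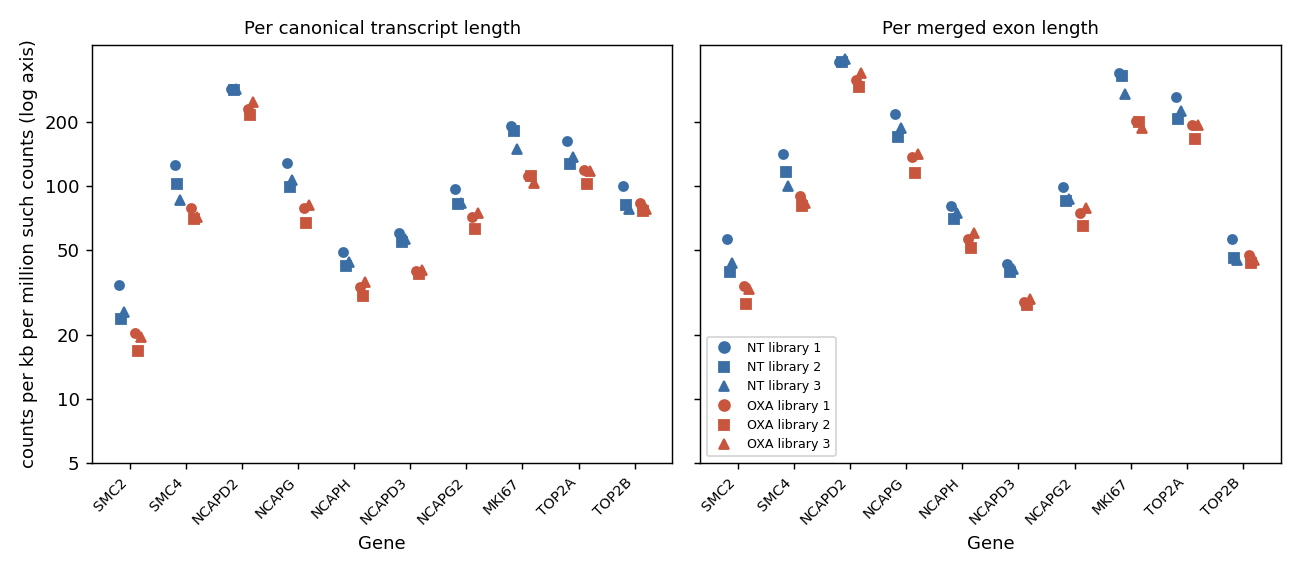
Counts per kb, scaled to a sum of 1000000 in each library (log axis), of the 10 genes in each library, per kb of the canonical transcript (left) and of the merged exons (right), NT in blue and OXA in red with the replicate number as the symbol. NCAPD2 was the highest in NT on both scales, while TOP2B and NCAPD3 moved down on the right, where their annotated exons are longest.

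The promoters were compared because 9 of the 10 genes lay lower together. Letters were searched on both strands in promoter windows of RefSeq (GRCh38.p14), from 250 bases before to 50 after a start, and for each gene the window at the canonical start is used. The CHR element, bound by the DREAM and MuvB complexes at many cell cycle genes, was searched as TTTGAA or TTCGAA. It was found in 9 of the 10 windows, with NCAPH as the exception. Counted over all windows, alternative starts included, it was in 9 of the 14 windows of these genes and in 16.4% of the 35116 windows of the table. CCAAT, the box bound by NF-Y, was found in 6 of the 10, or 6 of the 14, and in 34.6% of all windows. An E2F site, searched as TTTCCCGC, TTTGGCGC, TTTCGCGC or TTTGCCGC, was found in NCAPD3 alone, 1 of the 14, and in 3.3% of all windows. The 10 genes were chosen by function, so these shares are a description, and a match is not a binding site. TOP2B, whose groups overlapped, also held a CHR match, in the reverse orientation 227 bases before its start. The 250 bases before the start are printed for the genes called lower and for the topoisomerase II pair, 5′ to 3′ on the strand of the gene and ending at the base before the start. Capitals mark the CHR, CCAAT and E2F matches in either orientation. The regions are chr10:128126424-128126673 for MKI67, chr11:134223968-134224217 for NCAPD3, chr17:40417897-40418146 for TOP2A and chr3:25664908-25665157 for TOP2B, all on the minus strand.
MKI67: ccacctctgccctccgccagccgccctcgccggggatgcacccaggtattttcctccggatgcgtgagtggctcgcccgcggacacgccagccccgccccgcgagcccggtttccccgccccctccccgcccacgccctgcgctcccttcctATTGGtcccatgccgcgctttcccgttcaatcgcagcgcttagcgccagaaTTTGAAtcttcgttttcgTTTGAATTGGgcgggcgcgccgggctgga
NCAPD3: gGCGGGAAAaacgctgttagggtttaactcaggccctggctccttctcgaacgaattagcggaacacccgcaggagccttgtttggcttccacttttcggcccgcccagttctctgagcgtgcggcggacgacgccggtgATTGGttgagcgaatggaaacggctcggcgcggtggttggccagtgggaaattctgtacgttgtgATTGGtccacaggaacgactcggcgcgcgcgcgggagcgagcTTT
TOP2A: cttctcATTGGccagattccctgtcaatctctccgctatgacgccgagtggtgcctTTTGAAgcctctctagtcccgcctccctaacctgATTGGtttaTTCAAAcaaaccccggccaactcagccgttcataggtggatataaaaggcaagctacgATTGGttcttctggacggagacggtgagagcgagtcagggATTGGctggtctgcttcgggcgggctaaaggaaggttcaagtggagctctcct
TOP2B: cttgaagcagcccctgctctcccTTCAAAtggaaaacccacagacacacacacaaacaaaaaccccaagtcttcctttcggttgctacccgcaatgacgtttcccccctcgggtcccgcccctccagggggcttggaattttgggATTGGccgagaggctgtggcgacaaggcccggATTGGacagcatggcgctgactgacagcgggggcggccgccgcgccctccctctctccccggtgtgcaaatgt

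MKI67 held CHR matches beginning 47 and 29 bases before the start, the second sharing a base with a reversed CCAAT at 24, and another reversed CCAAT at 98. In NCAPD3 the CHR match began 3 bases before the start, so its last bases lie beyond the printed stretch, with reversed CCAAT boxes at 110 and 45 and the E2F match, reversed, near the far end of the stretch. TOP2A held CHR matches at 194 and, reversed, at 151, and reversed CCAAT boxes at 244, 160, 93 and 53. In TOP2B the boxes lay at 105 and 73, also reversed.

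Genes that work beside these 10 were counted in lists written with earlier results of these data known. Of the 51 tested genes in 6 such lists, 8 fell and 0 rose by edgeR, and the median log2 fold change was -0.16. At an unadjusted p under 0.05, 20 were lower and 1 higher, and DESeq2 called 12 lower and 0 higher, to be read against the shares of all genes given above (11.1% and 10.7% unadjusted, 4.41% and 4.64% by DESeq2). Cohesin and its regulators, which hold sister chromatids together, had a median of -0.26 over 16 genes, and 3 fell. These were SMC1A, a cohesin arm (log2 fold change -0.50, edgeR adjusted p = 0.0358), ESCO2, which acetylates cohesin in S phase (-0.84, 0.022), and CDCA5, or sororin, which protects cohesion (-0.65, 0.015). SMC1A was not called with the authors' factors (edgeR adjusted p = 0.147). In this list edgeR called 0 lower without NT library 3, OXA library 1 or OXA library 2, against 0.498%, 0.136% and 0.231% of all genes tested. The highest value in this list was that of the cohesin loader subunit MAU2 (0.30, edgeR adjusted p = 0.507), which was 0.06 without NT library 1. In the SMC5/6 complex, a relative of condensin that acts in DNA repair, 2 of 6 tested genes fell, with a median of -0.41. They were SMC5, an arm of the complex (log2 fold change -0.48, edgeR adjusted p = 0.0472), and its SUMO ligase NSMCE2 (-0.51, 0.0423), and the highest was NSMCE3 at 0.07 (0.771). Both calls sat close to the threshold: edgeR called 0 of the 6 with the authors' factors and without any 1 library other than NT library 1, with 4 lower at an unadjusted p under 0.05 in each of these fits, and 1 was called with RLE factors or by limma-voom.

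Among 11 regulators and loaders of condensin, with a median of -0.08, edgeR called 0 (2 lower and 0 higher at an unadjusted p under 0.05, and 1 lower by DESeq2). The highest was AKAP8 (log2 fold change 0.19, edgeR adjusted p = 0.307), which encodes an anchoring protein of the nucleus. Partners of Ki-67 and proteins of the layer around mitotic chromosomes had a median of -0.02 over 8 genes, and edgeR again called 0. At an unadjusted p under 0.05, 2 were lower and 1 higher, and DESeq2 called 1 lower. The kinesin KIF15 was the lowest (-0.56, edgeR adjusted p = 0.055), and NIFK, a nucleolar protein that binds the forkhead-associated domain of Ki-67, was the highest (0.29, 0.182). For KIF15 the edgeR adjusted p with the replicate block was 0.00964, and the DESeq2 adjusted p was 0.00967. Other topoisomerases and the genes that repair or dissolve their complexes had a median of -0.22 over 9 genes. The 3 that fell were RMI2 (log2 fold change -0.89, edgeR adjusted p = 0.00975), the helicase BLM (-0.82, 0.0153) and RMI1 (-0.64, 0.0474), which together with topoisomerase III alpha dissolve crossed DNA strands, and the highest was TOP3B (0.12, 0.81). With 1 library left out, RMI1 stayed called only without NT library 1. Of these 9 genes edgeR called 0 lower without OXA library 1 or OXA library 2, against 0.136% and 0.231% of all genes tested.

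With the replicate block, 21 of the 51 were called lower and 1 higher, NIFK (edgeR adjusted p = 0.0179). The background in this fit was 10.9% of all genes tested for a fall and 12.1% for a rise. By list, 9 of 16 cohesin genes, 4 of 6 SMC5/6 genes, 2 of 11 condensin regulators, 2 of 8 Ki-67 partners and 4 of 9 topoisomerase genes were called lower. With 1 library left out, edgeR called 11 of the 51 lower without NT library 1, 4 without NT library 2 and 2 without NT library 3, against 4.11%, 1.05% and 0.498% of all genes. It called 0, 0 and 2 without OXA library 1, 2 and 3, against 0.136%, 0.231% and 0.483%. At an unadjusted p under 0.05, 18, 15 and 17 were lower in these fits, against 8.03%, 7.11% and 10.1% of all genes.

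**Figure D5:**
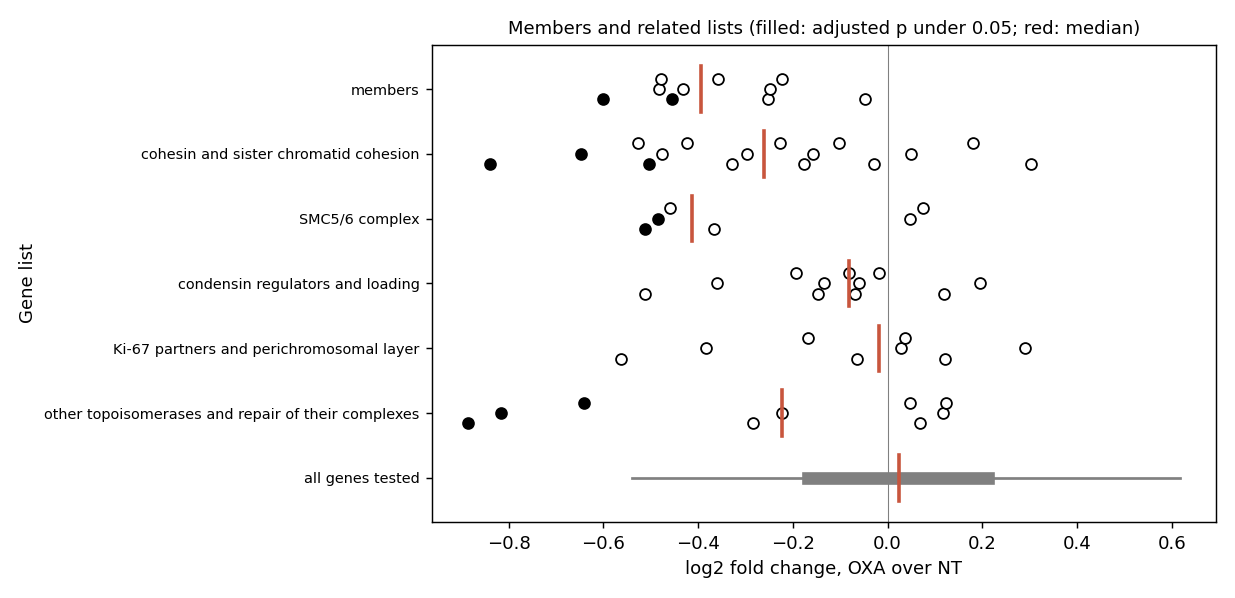
Log2 fold change (OXA over NT) of each tested gene in the 10 members and 5 related lists, with filled points for an edgeR adjusted p under 0.05 and a red line for the median, above the percentiles 5, 25, 75 and 95 of all genes tested (grey, -0.54, -0.17, 0.21 and 0.62). The members and the cohesin, SMC5/6 and topoisomerase lists have medians between -0.41 and -0.22, and the other lists lie near the median of all genes.

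Genes whose log2 level over the 6 libraries followed that of MKI67 most closely, among 12065 genes with a mean of at least 50 normalized counts, were CPSF6 (Pearson's r 0.996), MDC1 (0.994) and ZNF224 (0.993). For TOP2A they were DDX20 (0.9995), SRSF6 (0.999) and RBBP5 (0.998), and for TOP2B INTS8 (0.996), ZNF23 (0.993) and EIF2S2 (0.993). The 6 libraries share the pattern of replicate numbers described above, and the correlations are given as a description. Of these 9 genes, MDC1 was the one called lower in OXA (log2 fold change -0.51, edgeR adjusted p = 0.0428).

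Reads of genes that overlap on opposite strands cannot be assigned with certainty, since the strand setting of the counting is not given in the sources used here. Exons of NCAPD3 share 1889 bases with JAM3 on the other strand, those of NCAPG 1634 with LCORL, those of SMC4 1553 with TRIM59 and those of NCAPD2 383 with MRPL51. SMC2, NCAPH, NCAPG2 and MKI67 overlap no annotated gene. In the authors' own normalized values, which scale each gene in each library by its own factor, the groups overlapped for SMC4 (9492, 8391 and 5369 in NT against 7228, 6262 and 4864 in OXA), for TOP2A (13286, 10859 and 14126 against 10397, 9189 and 12032) and for TOP2B, and were separate for the other 7 genes. With these factors in edgeR, MKI67 (edgeR adjusted p = 0.0497) and NCAPD3 (0.0348) were again the 2 genes called.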

How the data were processed

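The submitters' processing notes list Trimmomatic 0.32, STAR 2.7.5b, RSEM 1.3.3 and DESeq2 2.13 with GRCh38. The gene annotation and the strand setting of the counting are not given in the sources used here. For each gene and library the authors deposited a raw count, a whole number that was used as deposited, and a normalized signal. This signal deposited by the authors equals that count times a factor of its own for each gene and library, and it was used only in alternatives. Duplicates of PCR could not be told apart, so depth gives a lower limit of the error.

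Counts were filtered with filterByExpr (minimum count 10, minimum total count 15), normalized by TMM and compared in R 4.3.3 by the quasi-likelihood test of edgeR 4.0.16 without covariates. P-values were adjusted by Benjamini-Hochberg over the 13727 genes. Standard errors are the estimate over the square root of F. DESeq2 1.42.0 and limma-voom 3.58.1 served as alternatives. Every adjusted p printed is from edgeR unless another tool is named. The steps were tested on simulated counts. The ratio of TOP2A to TOP2B was tested by exact permutation (SciPy 1.17.1). Positions, lengths and GC content came from GENCODE 44 on GRCh38, which covered 99.6% of the 13727 genes. Promoter windows were RefSeq's. The log2 levels for the correlations between genes used a prior count of 2.

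The correlation of deviations from the group means was 0.71, 0.71 and 0.41 for same-numbered NT and OXA libraries and between -0.60 and 0.15 for others. All same-numbered values passed the limit of 0.1. The numbers come from the sample labels, which do not say what they stand for.

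The members and lists were chosen with earlier results of these data known. Genes named are the 10 members, the list genes with an adjusted p under 0.05, the lowest and highest of each list, and for MKI67, TOP2A and TOP2B the 3 genes with the highest correlation. A gene that this rule selects is not reported here. Alternatives were RLE factors or library totals, no filter or a minimum count of 50, DESeq2, limma-voom, the replicate block, the authors' factors, and leaving out each library in turn. The authors' factors with the block, the canonical transcript length and the alternatives of the condensin I to condensin II ratio were chosen after seeing the data. Protein sequences were not analysed here.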

Additional observations from a re-analysis of the deposited data

How the results depend on the processing

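Among the log2 fold changes of the 10 genes over 15 alternatives, 122 kept their direction and their side of the threshold, 19 passed it anew, 8 no longer passed it and 1 changed sign (TOP2B, 0.0576 without NT replicate 1, with a range of -0.1472 to 0.0576 as each library was left out). MKI67 and NCAPD3 passed in 11 of 15 alternatives each, NCAPG in 5 and TOP2B in 0. Members called lower numbered 4 with library totals, 4 by DESeq2, 9 with the replicate block, 9 with the authors' factors and the block, and 0 to 2 with 1 library left out. Genes called lower over the whole table numbered 511 with library totals, 578 by DESeq2, 1493 with the block, 200 with the authors' factors, 1167 with both, and 19 to 571 with 1 library left out. Called higher were 609 by DESeq2, 1664 with the block, 241 with the authors' factors, 1319 with both, and 66 to 623 with 1 library left out. Library totals moved the share of calls that were lower from 45.3% to 59.3%. List genes called lower numbered 21 with the block, 5 with the authors' factors, 20 with both, and 0 to 11 with 1 library left out, and called higher 1 with the block, 1 with both, and 0 to 1. With 1 library left out, NCAPH2 ranged from -0.1925 (without NT replicate 1) to 0.2526, and was -0.0182 without OXA replicate 3, NSMCE3 from -0.035 (without NT replicate 3) to 0.1178, and TOP3B from -0.1059 (without NT replicate 1) to 0.2738. The log2 difference of the condensin I to condensin II ratio was -0.0012, 0.0276 with canonical lengths, and -0.0269 to 0.0194 with 1 library left out, all within the spread of NT. The log2 ratio of TOP2A to TOP2B kept its sign throughout (-0.25 to -0.16 with 1 library left out), and with the authors' values the exact permutation p was 0.3. The cause of these shifts was not tested. Replicates differed by more than counting error (chi-square per gene 19.2 to 83.1). With 3 against 3 libraries, the exact permutation test of a ratio could not go below 0.1.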
